A study of Mus musculus with 61 samples.

Results

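The liver of the mouse was compared between the day of birth (P0, 2 libraries) and the fetal stages E15.5 and E16.5 (embryonic days, 2 libraries each). These 6 libraries were chosen by tissue and stage, and they are 6 of the 61 libraries of the series, which followed forebrain, midbrain, hindbrain and liver through fetal life. All are mRNA libraries of liver, and no treatment, strain, sex or genotype is given for any of them; the P0 libraries also carry the source name of fetal liver. Nothing in the labels ties the replicates to different embryos or pups, or says whether livers were pooled; the p-values then reflect only how these libraries differ among themselves, and some of that may be technical. Transcripts of both Xist, made from the inactive X chromosome, and Ddx3y, a Y-linked gene, were present in each library. Below, the 4 libraries at E15.5 and E16.5 are called the earlier arm, and a change is P0 minus the average of the E15.5 and E16.5 means. No library lies between E16.5 and P0, so changes late in gestation and changes at birth cannot be told apart. A change at birth below means a change to P0.

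Before birth the liver is a site of red blood cell formation, and its hepatocytes receive glucose from the mother through the placenta. At birth that supply stops, and the newborn liver makes glucose from lactate and amino acids, burns fatty acids from milk, disposes of nitrogen as urea and begins to clear bilirubin and foreign compounds itself. Glucocorticoids and glucagon, through cyclic AMP, are known inducers of several of the enzymes involved, and blood formation moves to the bone marrow and spleen.

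Levels are in TPM (transcripts, scaled for their length, as a part of a fixed total per library), and changes are differences of log2(TPM + 1), which understate the change of genes with low values. Of 14729 genes tested, 2006 (13.6%) were called at an adjusted p below 0.05 and an absolute log2 change of at least 1: 1321 were higher at P0 (8.97%) and 685 were lower (4.65%). The libraries of both arms did not overlap in 63.0% of all genes tested, so separation of the libraries alone marks no gene out. The median change of all genes was 0.00. Against E16.5 alone, 1076 genes were called higher (7.31%) and 687 lower (4.66%).

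The 6 libraries held from 12277 to 12803 genes at 1 TPM or more. The haemoglobin genes summed to 388176 and 386952 TPM at E15.5, 334957 and 325713 TPM at E16.5, and 108575 and 114908 TPM at P0. TPM values add up to the same total in each library, so the other genes share what haemoglobin leaves. When the haemoglobin genes were left out and the rest rescaled, the median of all genes moved to -0.35 and the split of calls turned to 860 higher and 2004 lower, 30.0% higher in place of 65.9%. Changes below are therefore relative to the total of TPM, and where a count called higher or lower in a list described here moved by over 1.5 times under that rescaling, it is given. The sets of genes with near-identical copies stood apart by stage: mt-Co3, a mitochondrial subunit of cytochrome oxidase, was at 156 and 165 TPM at E15.5, 7351 and 8240 TPM at E16.5, and 533 and 547 TPM at P0, and the ribosomal protein gene Rps27 at 796 and 777 TPM at E15.5, 24.1 and 31.2 TPM at E16.5, and 23.2 and 77.6 TPM at P0. Reads of such genes can be split between copies, so mitochondrial genes, ribosomal protein genes and their nuclear copies are uncertain here. At E15.5, E16.5 and P0 alike, the stage and this difference between libraries cannot be told apart.

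**Figure D1:**
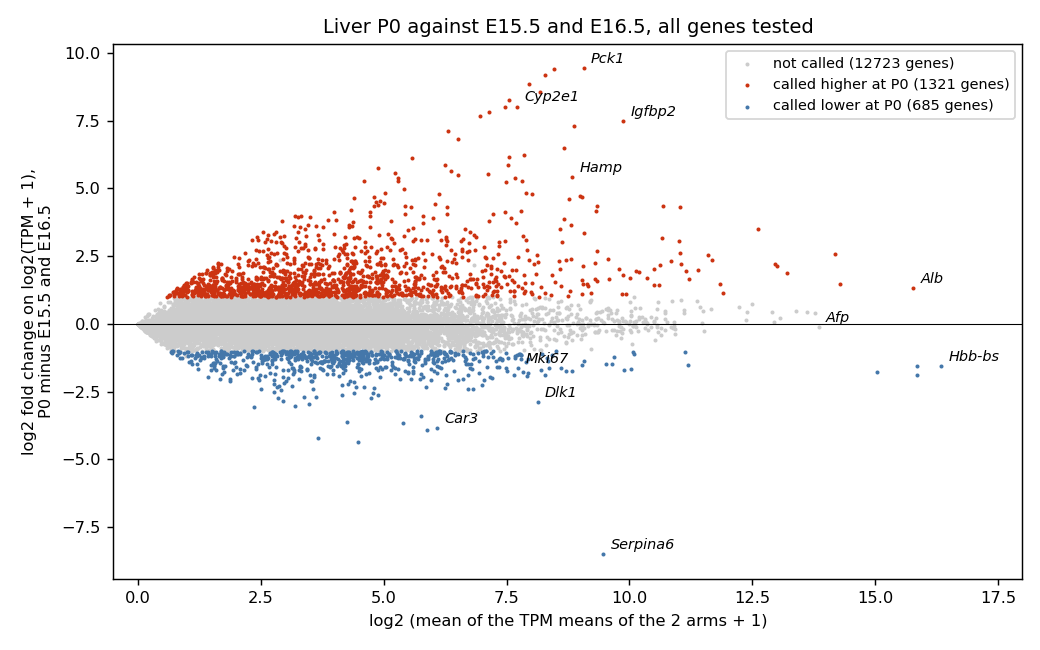
Change of each gene tested (vertical axis, log2 change on log2(TPM + 1) from E15.5 and E16.5 to P0) against its level (horizontal axis, log2 of the mean of both arms' mean TPM plus 1). Each point is 1 gene; red points are the 1321 called higher and blue points the 685 called lower, and Serpina6 at -8.51 lies far below every other called gene.

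Genes of gluconeogenesis were higher at P0: 12 of 19 were called higher and none lower, with a median change of 1.17 beside 0.00 over all genes. Pck1 encodes phosphoenolpyruvate carboxykinase, which commits oxaloacetate to glucose. It stood at 0.49 and 0.53 TPM at E15.5, 0.58 and 0.52 TPM at E16.5, and 1274 and 871 TPM at P0, a change of 9.43 ± 0.13 (SE; adjusted p 8.69e-13). Both P0 libraries lay far above all 4 earlier ones, which were near the lower limit of the scale. G6pc, the catalytic subunit of glucose-6-phosphatase that releases free glucose, stood at 0.03 and 0.03 TPM at E15.5, 0.07 and 0.15 TPM at E16.5, and 715 and 524 TPM at P0 (change 9.16 ± 0.11, adjusted p 3.38e-13). Fbp1, fructose-1,6-bisphosphatase, was already present before birth, at 25.6 and 19.1 TPM at E15.5, 46.7 and 52.8 TPM at E16.5, and 902 and 761 TPM at P0. Its change to P0 was 4.60 ± 0.16, and it was also called higher at E16.5 than at E15.5 (change 1.13, adjusted p 0.00206). Got1, a cytosolic aspartate aminotransferase, rose from a mean of 16.3 TPM in the earlier arm to 503 TPM at P0, with P0 libraries of 678 and 329 TPM that differed from each other by more than the earlier ones did. Against E16.5 alone, 8 of the 19 were called. Mdh1 and Mdh2, the cytosolic and mitochondrial malate dehydrogenases and abundant members, were not called (changes 0.92 and -0.05), but Mdh1 was called higher without replicate 1 of P0 (1.46).

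The promoters of the 2 genes with the largest changes in this list are shown with that of Tat, described next, because all 3 were near silent in each earlier library and among the most changed genes at P0. The stretches are the bases just before the RefSeq start (build GRCm38.p6), read 5′ to 3′ on the gene's strand, with motif matches in capitals. In Pck1 (chr2:173152953-173153072, + strand) the capitals mark TGACG, the short form of the cyclic AMP response element, on the opposite strand at -90 to -86 from the start. In G6pc (chr11:101367496-101367715, + strand) they mark CCAAT (once on each strand), the C/EBP pattern TTNNGNAA and the TATA box TATAAA. In Tat (chr8:109990236-109990435, + strand) they mark CCAAT, found 3 times over both strands, and the GATA pattern AGATAA.
Pck1: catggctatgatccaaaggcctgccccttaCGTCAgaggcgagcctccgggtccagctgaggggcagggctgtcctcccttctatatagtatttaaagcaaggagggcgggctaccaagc
G6pc: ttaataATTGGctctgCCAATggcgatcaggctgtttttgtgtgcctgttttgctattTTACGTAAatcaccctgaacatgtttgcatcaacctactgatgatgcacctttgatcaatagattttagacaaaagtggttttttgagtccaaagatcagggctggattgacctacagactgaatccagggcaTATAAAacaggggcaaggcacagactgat
Tat: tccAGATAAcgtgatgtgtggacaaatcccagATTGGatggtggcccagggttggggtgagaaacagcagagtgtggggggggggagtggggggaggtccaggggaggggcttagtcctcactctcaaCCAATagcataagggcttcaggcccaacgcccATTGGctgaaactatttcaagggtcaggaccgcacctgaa
A match describes letters and not a bound site. TGACG, searched on both strands in the 250 bases before the start, occurred in 25.2% of the 13712 windows of tested genes, in 18.3% of those of genes called higher and in 22.1% of those of genes called lower. Of the 14729 genes tested, 10732 had a promoter window in the RefSeq table.

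**Figure D2:**
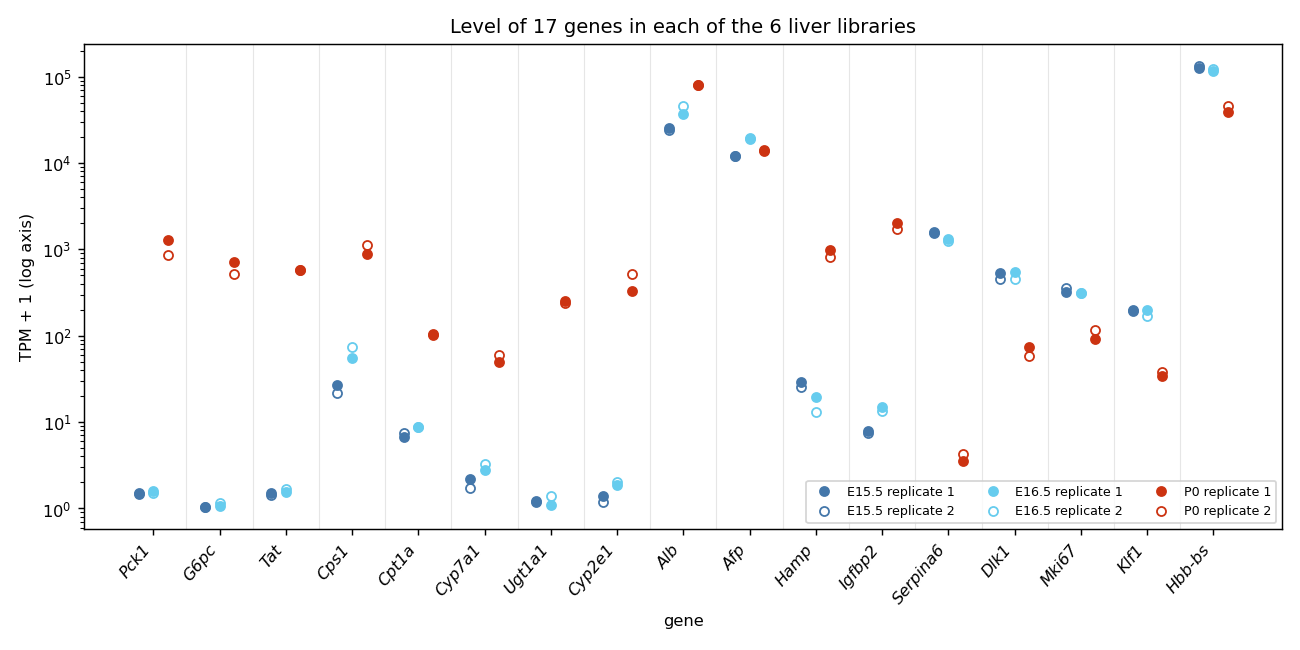
Level (vertical axis, TPM + 1 on a log axis) of 17 genes in each of the 6 liver libraries; filled and open circles are replicates 1 and 2, and colour marks the stage. Pck1, G6pc and Tat lie under 1 TPM in all 4 earlier libraries and at 524 TPM or more in both P0 libraries, and Serpina6 shows the opposite order.

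Enzymes of glycogen and sugar handling rose less widely. In the glycogen list 6 of 18 members were called higher and none lower (median 0.71). Ppp1r3g, a subunit that targets a phosphatase to glycogen, was at 0.89 and 0.75 TPM at E15.5, 1.07 and 1.41 TPM at E16.5, and 45 and 29.1 TPM at P0 (change 4.21 ± 0.14). Glycogen phosphorylase of liver, Pygl, was not called, at 88.4 and 85.8 TPM at E15.5, 131 and 144 TPM at E16.5, and 174 and 164 TPM at P0. Among isozymes of glycolysis and glucose uptake 5 of 24 were called higher and 1 lower, and with haemoglobin left out the counts were 3 and 6. The member that fell was Slc2a1, a glucose transporter that fetal red cells also carry, at 227 and 235 TPM at E15.5, 208 and 168 TPM at E16.5, and 46.1 and 40 TPM at P0 (change -2.25 ± 0.09). Erythroid genes, described below, fell in the same libraries, and their part in the change of Slc2a1 was not tested.

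Amino acid breakdown showed one of the widest rises, with 23 of 33 members called higher, none lower and a median change of 1.53 (17 higher and 1 lower with haemoglobin left out). Tat, tyrosine aminotransferase, a classical target of glucocorticoids, was at 0.53 and 0.45 TPM at E15.5, 0.55 and 0.67 TPM at E16.5, and 579.8 and 576 TPM at P0 (change 8.55 ± 0.08, adjusted p 6.88e-14). The 2 P0 libraries were nearly equal and the earlier ones all lay under 1 TPM. Sds, serine dehydratase, which turns serine into pyruvate, was at 0.52 and 0.47 TPM at E15.5, 1.42 and 1.58 TPM at E16.5, and 88.8 and 62 TPM at P0 (change 5.28 ± 0.12). Mat1a, the liver enzyme that makes S-adenosylmethionine, rose from a mean of 70.2 TPM in the earlier arm to 1204 TPM at P0 (change 4.18 ± 0.10). Agxt, a peroxisomal aminotransferase that removes glyoxylate, rose from a mean of 7.81 TPM in the earlier arm to 146 TPM at P0 (change 4.06 ± 0.13).

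In the urea cycle 6 of 9 genes were called higher, with a median of 2.41, and the same number against E16.5 alone. Cps1, carbamoyl phosphate synthetase, the entry enzyme, was at 25.8 and 20.7 TPM at E15.5, 54.7 and 72.5 TPM at E16.5, and 892 and 1114 TPM at P0 (change 4.67 ± 0.14). It rose in steps, since it was called at E16.5 against E15.5 as well (change 1.41, adjusted p 0.000263). Arg1, arginase, rose from a mean of 69 TPM in the earlier arm to 823 TPM at P0 (change 3.64 ± 0.14), and Asl, argininosuccinate lyase, from a mean of 37.5 TPM in the earlier arm to 313 TPM at P0 (change 3.05 ± 0.07). Otc, the mitochondrial ornithine transcarbamylase, did not follow the other enzymes past the threshold: it stood at 35.5 and 33.5 TPM at E15.5, 48 and 56 TPM at E16.5, and 33.1 and 46.9 TPM at P0, with overlapping arms and a change of -0.10 ± 0.12. Glud1, glutamate dehydrogenase, was not called either (change -0.03).

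Fatty acid oxidation genes were called higher in 22 of 40 cases and lower in none (median 1.17; 16 higher and 1 lower with haemoglobin left out). Cpt1a, carnitine palmitoyltransferase of liver, which admits long-chain fatty acids to mitochondria, was at 5.72 and 6.51 TPM at E15.5, 7.88 and 7.71 TPM at E16.5, and 103 and 102 TPM at P0 (change 3.71 ± 0.10, adjusted p 1.29e-10). The microsomal omega-hydroxylases Cyp4a14 and Cyp4a10, targets of the nuclear receptor PPAR alpha, were close to 0 before birth. Cyp4a14 stood at 0.04 and 0.06 TPM at E15.5, 0.19 and 0.3 TPM at E16.5, and 249 and 499 TPM at P0 (change 8.27 ± 0.20), and its second P0 library was the higher of the pair. Cyp4a10 stood at 0.02 and 0.02 TPM at E15.5, 0.09 and 0.1 TPM at E16.5, and 102 and 212 TPM at P0 (change 7.13 ± 0.20) with the same order of P0 libraries. These P450 genes have close relatives, so their reads may be shared between copies. Pdk4, a kinase that spares pyruvate from oxidation, rose from a mean of 2.74 TPM in the earlier arm to 47.9 TPM at P0, with unequal P0 libraries (71.1 and 24.7 TPM).

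Ketone body synthesis had a narrower rise, 3 of 7 called higher, and with haemoglobin left out 1 higher and 1 lower. Genes of fatty acid and triglyceride synthesis were called higher in 9 and lower in 1 of 20 cases, and in 5 and 2 with haemoglobin left out. Lpin1, a phosphatidate phosphatase that also acts as a coactivator, led with 5.68 and 5.97 TPM at E15.5, 7.45 and 8.34 TPM at E16.5, and 153 and 87.6 TPM at P0 (change 3.91 ± 0.18). Scd2, a desaturase, fell from a mean of 134 TPM in the earlier arm to 60.5 TPM at P0 (change -1.14 ± 0.10), and Fasn, fatty acid synthase, was not called (change 0.01 ± 0.15; arms overlapping); both were named after their values were seen. Of genes of cholesterol synthesis and uptake 3 of 26 were called higher and 1 lower, shares near those of all genes, with a median of -0.23. These counts were 1 and 7 with haemoglobin left out. Idi1, isopentenyl diphosphate isomerase, was the member called lower (change -1.13 ± 0.07), and Lcat, which esterifies plasma cholesterol, rose (change 1.85 ± 0.09).

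Bile acid synthesis and transport rose broadly, with 17 of 21 genes called higher, none lower and a median of 2.11. The count was also 17 against E16.5 alone and 14 with haemoglobin left out. Cyp7a1, the rate-limiting enzyme of bile acid synthesis, was at 1.18 and 0.74 TPM at E15.5, 1.79 and 2.28 TPM at E16.5, and 48.7 and 59.6 TPM at P0 (change 4.50 ± 0.11). Cyp8b1, which sets the share of cholic acid, rose from a mean of 5.31 TPM in the earlier arm to 124 TPM at P0 (change 4.42 ± 0.10). The uptake carriers Slc10a1 and Slco1b2 rose as well, Slc10a1 from a mean of 23.9 TPM in the earlier arm to 418 TPM at P0 and Slco1b2 from a mean of 3.58 TPM in the earlier arm to 87.8 TPM at P0. Nr0b2, the repressor SHP that limits Cyp7a1, was at 0.37 and 0.29 TPM at E15.5, 0.44 and 0.44 TPM at E16.5, and 8.57 and 12.8 TPM at P0 (change 3.05 ± 0.13), so the enzyme and its known repressor rose together.

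For bilirubin, the product of haem breakdown, the conjugating enzyme changed most. Ugt1a1, which makes bilirubin soluble and whose lack causes jaundice, was at 0.18 and 0.21 TPM at E15.5, 0.1 and 0.39 TPM at E16.5, and 252 and 239.9 TPM at P0 (change 7.67 ± 0.10, adjusted p 3.38e-13). All 4 earlier libraries lay under 0.5 TPM. The exons that Ugt1a1 shares with the other genes of its locus make the division of reads among them uncertain. Hp, haptoglobin, which binds free haemoglobin, rose from a mean of 159 TPM in the earlier arm to 3122 TPM at P0 (change 4.35 ± 0.10). Blvrb, a biliverdin reductase abundant in red cells, fell from a mean of 778 TPM in the earlier arm to 303 TPM at P0 (change -1.36 ± 0.05), while Hmox1, haem oxygenase 1, was not called (change -0.10 ± 0.09). In the list as a whole 4 of 12 genes were called higher and 1 lower (4 higher and 2 lower with haemoglobin left out).

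Cytochrome P450 genes of drug and steroid metabolism had the highest median change of the lists of hepatocyte function, 2.81, with 30 of 33 members called higher and none lower. Another 15 members in the table did not reach 1 TPM in 2 liver libraries. Cyp2e1, which oxidizes ethanol and acetone, was at 0.4 and 0.2 TPM at E15.5, 0.88 and 1.02 TPM at E16.5, and 327 and 512 TPM at P0 (change 8.01 ± 0.14, adjusted p 6.34e-12). Cyp2c69 stood at 0.24 and 0.08 TPM at E15.5, 0.33 and 0.27 TPM at E16.5, and 324 and 233 TPM at P0 (change 7.81 ± 0.11), and Cyp3a41a at 0.39 and 0.23 TPM at E15.5, 0.33 and 0.52 TPM at E16.5, and 87.9 and 98.7 TPM at P0 (change 6.11 ± 0.08). In each of these genes both P0 libraries exceeded the earlier ones by more than the spread within either arm. Cyp3a25 rose from a mean of 0.443 TPM in the earlier arm to 181 TPM at P0, although its P0 libraries differed (94.0 and 267.7 TPM). Members of the Cyp2c and Cyp3a families are near-identical in sequence, so the level of any 1 of them is less certain than that of the family.

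Promoters of this list shared letters that are less common over all windows of tested genes. The 9 letters CAAAGTCCA, a core to which HNF4 alpha, a hepatocyte factor, is known to bind, occurred on either strand in 8 of 29 windows of called P450 genes (27.6%), beside 0.438% of all windows of tested genes. TATAAA was in 48.3% of them, beside 6.97%, and related genes of this list may share it as copies. TATAAA was not particular to this list: it was in 40.9% of windows of called interferon genes and 40.0% of called bile acid genes. Its share was 13.1% for all genes called higher and 0% for called cell cycle genes. The 8 windows with the HNF4 letters are of genes of the Cyp2c and Cyp3a families. Within a family, promoters can be copies of one another, so these windows are not independent cases. A member of each family is shown, with CAAAGTCCA in capitals, from build GRCm38.p6: Cyp2c69 at chr19:39886770-39886889, - strand, and Cyp3a41a at chr5:145720137-145720256, - strand.
Cyp2c69: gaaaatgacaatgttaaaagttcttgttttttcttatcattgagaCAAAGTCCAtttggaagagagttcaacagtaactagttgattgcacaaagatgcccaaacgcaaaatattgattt
Cyp3a41a: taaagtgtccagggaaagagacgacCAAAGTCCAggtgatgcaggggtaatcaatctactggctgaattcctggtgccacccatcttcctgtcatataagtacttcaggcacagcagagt
The match begins 75 bases before the start in Cyp2c69 and 95 bases before it in Cyp3a41a.

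Conjugating enzymes and transporters were mixed, with 19 of 38 called higher and 3 lower (median 1.0). With haemoglobin left out the counts were 12 and 8. Ces3a, a carboxylesterase, rose from a mean of 0.545 TPM in the earlier arm to 72.2 TPM at P0 (change 5.57 ± 0.09). Sult1d1, a sulfotransferase, had a change of 3.26 ± 0.10. Members that fell were Ugt2b36 (-1.93), Gstm3 (-1.30) and Ces1e (-1.23), which were named after their values were seen; Gstm3 was not called without replicate 1 of P0 (-0.94).

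Plasma proteins made the largest gains in TPM. Alb, serum albumin, was at 25454 and 24368 TPM at E15.5, 37392 and 45774 TPM at E16.5, and 79758 and 79207 TPM at P0, that is 7.98% and 7.92% of all TPM at birth, a change of 1.31 ± 0.08. With haemoglobin left out that change was 0.84 and against E16.5 alone 0.94, both under the size threshold. Ahsg, fetuin A, was next, at 4160 and 3662 TPM at E15.5, 6878 and 7379 TPM at E16.5, and 33875 and 29732 TPM at P0 (change 2.59 ± 0.08). Trf, Apoa1, Serpina1e, Apoe and Fga were also among the 8 largest gains, and the remaining one was Gm28437, an uncertain copy of mitochondrial sequence. Hbb-bs, Hba-a1, Hba-a2, Hbb-bt, mt-Co3, Gpx1, Afp and Serpina6 made the 8 largest losses, of which Afp was not called. Among carriers 11 of 16 were called higher and 1 lower. Hrg, histidine-rich glycoprotein, had the largest rise of that list, from a mean of 5.52 TPM in the earlier arm to 454 TPM at P0 (change 6.21 ± 0.10). Afp, alpha-fetoprotein, the albumin of the fetus, was not called, at 12051 and 12149 TPM at E15.5, 19373 and 18967 TPM at E16.5, and 14161 and 13766 TPM at P0 (change -0.13 ± 0.06). Its P0 libraries lay between those of E15.5 and E16.5.

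Hepatocyte markers as a group were higher, 11 of 14 called, and 7 with haemoglobin left out. Their summed level was 50777 to 86807 TPM in the earlier arm and 181262 and 194437 TPM at P0. In bulk tissue, more hepatocytes among all cells and more RNA per hepatocyte cannot be told apart.

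Apolipoproteins rose in 10 of 16 cases (median 1.64). Apoa5, a regulator of plasma triglyceride, was at 0.36 and 0.46 TPM at E15.5, 0.31 and 0.37 TPM at E16.5, and 319 and 381 TPM at P0 (change 7.99 ± 0.09). Apoc3, an inhibitor of lipoprotein lipase, rose from a mean of 5.41 TPM in the earlier arm to 360.5 TPM at P0 (change 5.88 ± 0.19). Apoa4, which is made in intestine and fasted liver, was uneven, at 0.44 and 1.16 TPM at E15.5, 0.12 and 13.1 TPM at E16.5, and 44 and 309 TPM at P0 (change 5.48 ± 0.86, adjusted p 0.00019). Its replicates differed widely at E16.5 and again at P0, so the size of its change is poorly fixed.

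Clotting factors rose in 20 of 25 cases (median 1.52; 13 with haemoglobin left out). The fibrinogen chains changed together, Fga by 2.37, Fgb by 2.61 and Fgg by 2.53. In complement 10 of 20 were called higher and 1 lower. Mbl2, a mannose-binding lectin that starts the lectin pathway, rose from a mean of 3.87 TPM in the earlier arm to 133 TPM at P0 (change 4.79 ± 0.10), and C4b rose from a mean of 19.4 TPM in the earlier arm to 335 TPM at P0 (change 4.14 ± 0.11). C9, a pore-forming component, was the one that fell, at 11.3 and 9.93 TPM at E15.5, 10.8 and 14.7 TPM at E16.5, and 1.36 and 1.25 TPM at P0 (change -2.45 ± 0.14). The acute phase list was called higher in 24 of 29 cases and lower in none (21 higher and 1 lower with haemoglobin left out). Lrg1, a leucine-rich glycoprotein, rose from a mean of 1.1 TPM in the earlier arm to 61.7 TPM at P0, and Apcs, serum amyloid P, from a mean of 61.4 TPM in the earlier arm to 1231 TPM at P0. Lcn2 and A2m, abundant members, were not called (changes 0.96 and -0.15), but Lcn2 was called higher against E15.5 alone (1.01).

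Protease inhibitors held a rise nearly as large as that of Pck1 and the largest fall. Serpina3k, a kallikrein-binding serpin, was listed at 0.01 TPM in 1 earlier library and at 0 in the other 3, and at 510 and 891 TPM at P0 (change 9.40 ± 0.17, adjusted p 6.24e-12). Serpina3m changed by 8.83 ± 0.11 and Serpina3n by 7.31 ± 0.15, and reads may be shared among these near relatives, since Serpina3k lies within the annotated span of Serpina3m. Serpina6 encodes corticosteroid-binding globulin, the plasma carrier that holds glucocorticoids in an inactive pool. It was at 1529 and 1570 TPM at E15.5, 1317 and 1248 TPM at E16.5, and 2.5 and 3.26 TPM at P0, a change of -8.51 ± 0.08 (adjusted p 6.88e-14), the largest fall of any gene tested here. The earlier stages E13.5 and E14.5 had means of 1507 and 1450 TPM, so the gene was abundant at each of these stages and close to 3 TPM at birth. In the whole list 19 of 26 were called higher and Serpina6 alone was called lower.

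Serpina6 lies on chromosome 12 (GRCm38, 103646630 to 103657212, minus strand) in a cluster of serpin genes from Serpina10 to Serpina3n that spans about 800 kb. The cluster was examined after the values were seen. Of its 15 serpin genes tested, 13 were called higher, Serpina10 was not called (change 0.63) and Serpina6 was called lower. The nearest neighbour on its other side, Serpina1b, at 1913 and 1922 TPM at E15.5, 2739 and 3151 TPM at E16.5, and 5110 and 5364 TPM at P0, was called higher (change 1.14 ± 0.07). Serpina1e had the largest change of the alpha-1-antitrypsin copies, 870.3 and 845 TPM at E15.5, 1134 and 1185 TPM at E16.5, and 13389 and 9632 TPM at P0 (change 3.51 ± 0.13), while the copies Serpina1a, Serpina1c and Serpina1d changed by 1.47, 1.44 and 2.32. With haemoglobin left out Serpina1a, Serpina1b and Serpina1c were not called (changes 1.0, 0.67 and 0.97), nor were Serpina1a and Serpina1b under quantile normalization (0.48 and 0.19). These copies are near-identical, and the division of reads among them is uncertain.

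**Figure D3:**
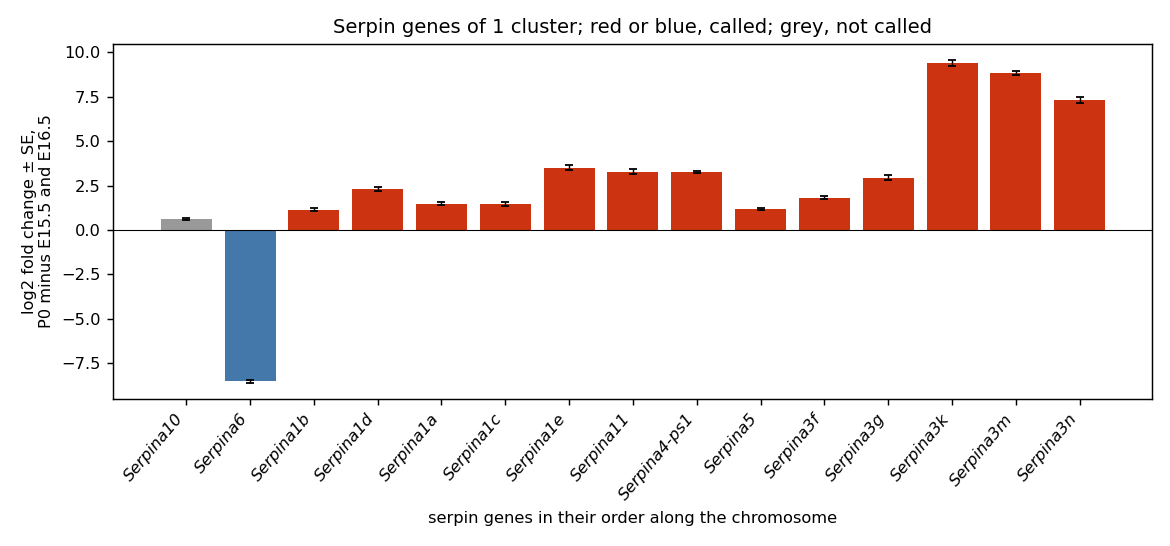
Change at birth (vertical axis, log2 change ± SE on log2(TPM + 1)) of the 15 serpin genes of the chromosome 12 cluster, in their order along the chromosome. Red bars are called higher, the blue bar, Serpina6, is called lower, and the grey bar, Serpina10, is not called.

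Hamp, which encodes hepcidin, the hormone that blocks iron release, was at 28.4 and 24.4 TPM at E15.5, 18.6 and 12.1 TPM at E16.5, and 977 and 805 TPM at P0 (change 5.41 ± 0.29). It rose against levels that were if anything lower at E16.5 than at E15.5. Of the iron list 7 of 20 were called higher and 3 lower. Slc39a14, a carrier for iron outside transferrin, rose from a mean of 19.3 TPM in the earlier arm to 75.3 TPM at P0. Tfrc, the transferrin receptor of red cell precursors, fell from a mean of 470.2 TPM in the earlier arm to 181 TPM at P0 (change -1.36 ± 0.09; named after its value was seen). The ferritin chains Fth1 and Ftl1 were not called (changes 0.56 and -0.08), and neither were the metallothioneins Mt1 (-0.20) and Mt2 (-0.38). Selenop, which carries selenium in plasma, rose (change 2.0 ± 0.05), whereas Gpx1, a glutathione peroxidase abundant in red cells, fell from a mean of 3486 TPM in the earlier arm to 1204 TPM at P0 (change -1.53 ± 0.08).

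**Figure D4:**
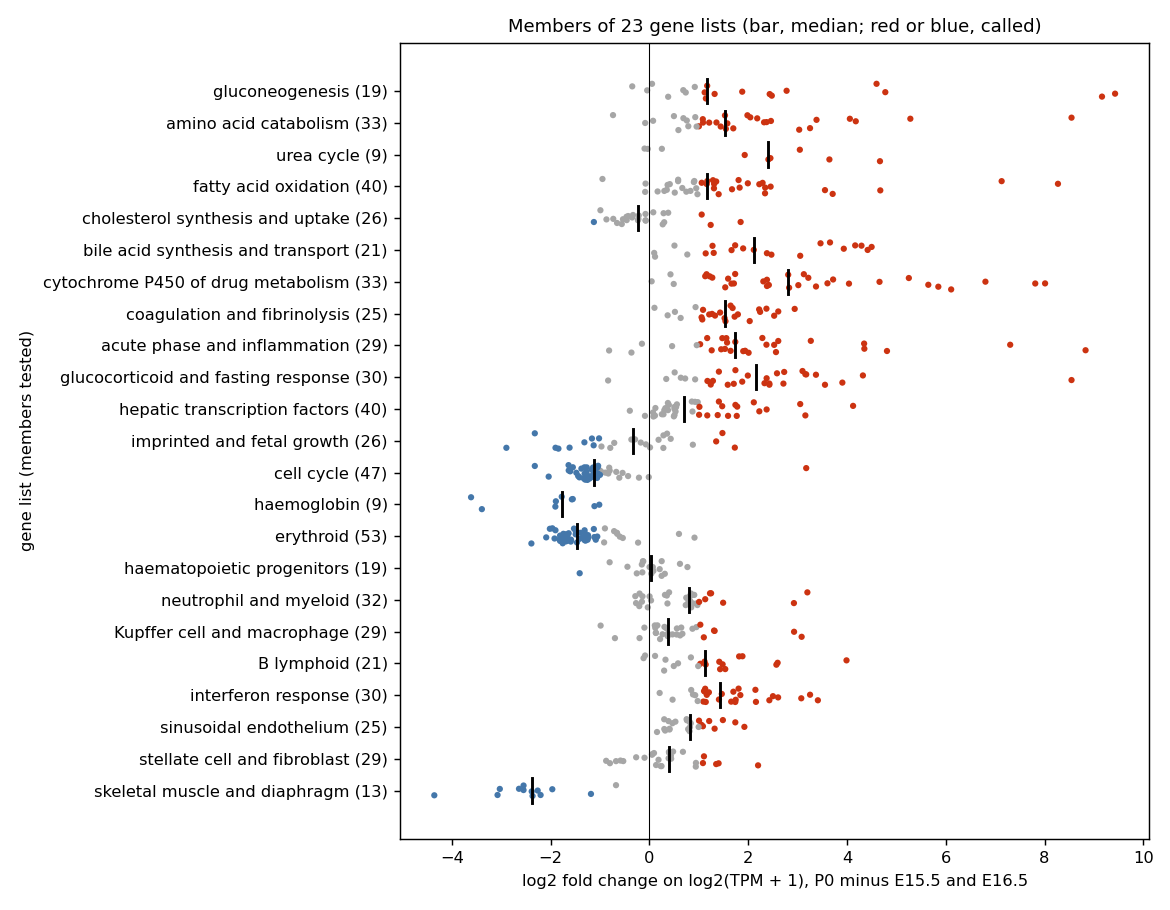
Change at birth (horizontal axis, log2 change on log2(TPM + 1)) of each tested member of 23 gene lists; red and blue points are called higher and lower, grey points are not called, and black bars are medians. Medians of the hepatocyte lists other than cholesterol lie to the right of 0, and the cell cycle, haemoglobin, erythroid and skeletal muscle lists lie to the left.

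Genes known to respond to glucocorticoids or fasting were called higher in 24 of 30 cases and lower in none, with a median of 2.16 (21 higher and 1 lower with haemoglobin left out). Igfbp1, a binding protein that restrains insulin-like growth factors in fasting, was at 157 and 134 TPM at E15.5, 267 and 238 TPM at E16.5, and 4873 and 3034 TPM at P0 (change 4.32 ± 0.28). Klf9, a direct target of the glucocorticoid receptor, rose from a mean of 0.838 TPM in the earlier arm to 15.7 TPM at P0 (change 3.16 ± 0.14). Cdkn1a, the cell cycle inhibitor p21, was at 5.23 and 6.01 TPM at E15.5, 5.79 and 5.9 TPM at E16.5, and 82.2 and 43.3 TPM at P0 (change 3.17 ± 0.19). In each of these genes replicate 1 was the higher of the 2 P0 libraries. The list of amino acid and endoplasmic reticulum stress was divided, 6 called higher and 7 lower of 25 (1 and 11 with haemoglobin left out). Among those called lower, Phgdh, an enzyme of serine synthesis, fell from a mean of 132 TPM in the earlier arm to 39.5 TPM at P0, and Mthfd2, a mitochondrial enzyme of one-carbon metabolism, from a mean of 46.1 TPM in the earlier arm to 14 TPM at P0. Chac1, which degrades glutathione, fell too (change -1.56 ± 0.14), while Atf5, a stress factor of the same list, rose (change 1.94 ± 0.15). Ctsl, a lysosomal protease, rose from a mean of 174 TPM in the earlier arm to 1115 TPM at P0, 1 of 5 called higher of 27 lysosome and autophagy genes (2 higher and 1 lower with haemoglobin left out).

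Oxygen-responsive genes were called higher in 7 of 22 cases and lower in 1 (5 higher and 2 lower with haemoglobin left out). Epas1, the hypoxia factor HIF-2 alpha, was at 4.99 and 4.32 TPM at E15.5, 7.15 and 6.71 TPM at E16.5, and 41.2 and 24.7 TPM at P0 (change 2.30 ± 0.17). Egln3, a prolyl hydroxylase that marks such factors for removal, rose from a mean of 3.74 TPM in the earlier arm to 18.9 TPM at P0. Immediate early genes were called higher in 9 of 20 cases (5 with haemoglobin left out). Zfp36, which destabilizes cytokine messages, rose from a mean of 8.0 TPM in the earlier arm to 60 TPM at P0, and Fos and Jun, components of AP-1, changed by 2.17 ± 0.11 and 1.96 ± 0.17. Egr1 was not called (change 0.12; named after its value was seen). Clock genes were called higher in 8 of 17 cases, among them Nr1d2 (2.01) and Cry2 (1.90). The hour of collection is not given, so stage and time of day cannot be told apart for these genes.

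Transcription factors of hepatocytes had smaller changes, with 16 of 40 called higher, none lower and a median of 0.71. Nr1i3, the xenobiotic receptor CAR, was at 1.25 and 1.07 TPM at E15.5, 2.61 and 2.75 TPM at E16.5, and 41 and 56.5 TPM at P0 (change 4.12 ± 0.11). Ppara, the fatty acid sensor PPAR alpha, rose from a mean of 10.9 TPM in the earlier arm to 52.1 TPM at P0 (change 2.23 ± 0.10), and both of its E16.5 libraries were already above those of E15.5; it was named after its values were seen. Foxa3, an abundant forkhead factor, was not called (change 0.37). Markers of liver zonation were called higher in 14 of 25 cases, a list that shares Pck1 and Cyp2e1 with those above. Glul, glutamine synthetase of the pericentral zone, was not called (change 0.85 ± 0.18), but its change passed the size threshold without replicate 2 of P0 (1.27).

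The growth hormone axis was called higher in 6 of 16 cases. Igfbp2, a binding protein of insulin-like growth factors, was at 6.89 and 6.58 TPM at E15.5, 14.1 and 12.4 TPM at E16.5, and 1997 and 1731 TPM at P0 (change 7.47 ± 0.12, adjusted p 2.05e-12). The receptor of prolactin, Prlr, rose from a mean of 0.18 TPM in the earlier arm to 16.8 TPM at P0 (change 3.92 ± 0.12), and Socs2, a feedback inhibitor of growth hormone signalling, from a mean of 2.63 TPM in the earlier arm to 32.5 TPM at P0 (change 3.20 ± 0.10). The growth hormone receptor Ghr was not called (change 0.72). Igf1, the growth factor that growth hormone induces after birth, was not called, at 16.1 and 16.6 TPM at E15.5, 14.6 and 17.1 TPM at E16.5, and 16.6 and 23 TPM at P0 (change 0.27 ± 0.11).

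Imprinted and fetal growth genes fell more often than they rose, 9 against 3 of 26, with a median of -0.33. Dlk1, a membrane ligand of fetal hepatoblasts, was at 533 and 447 TPM at E15.5, 548 and 453 TPM at E16.5, and 73.8 and 57.9 TPM at P0 (change -2.90 ± 0.13). Cdkn1c, the growth inhibitor p57, fell from a mean of 96.6 TPM in the earlier arm to 18.3 TPM at P0 (change -2.32 ± 0.07). Rian, a noncoding transcript of the imprinted cluster that holds Dlk1, fell from a mean of 492 TPM in the earlier arm to 130.4 TPM at P0 (change -1.90 ± 0.07). Meg3 and Mirg of that cluster fell too (changes -1.02 and -1.62) and were named after their values were seen; Meg3 was not called without replicate 2 of E15.5 (-0.99) or replicate 2 of P0 (-0.74). Igf2, the fetal growth factor, was not called, at 1449 and 1283 TPM at E15.5, 1639 and 1598 TPM at E16.5, and 3119 and 2396 TPM at P0 (change 0.88 ± 0.11), and H19, the noncoding gene beside it, had a change of 0.43 ± 0.07. Both P0 libraries lay above the earlier arm for Igf2 and for H19, but with haemoglobin left out the change of H19 was -0.041.

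Oncofetal genes fell in 8 and rose in 3 of 25 cases. Spink1, a trypsin inhibitor, was at 122 and 116 TPM at E15.5, 204 and 271 TPM at E16.5, and 28.8 and 33.3 TPM at P0 (change -2.39 ± 0.12), although its E16.5 libraries had been above those of E15.5. Tff3, a trefoil peptide, rose (change 3.50 ± 0.17). Among the 12 lowest genes of all were Car3, a carbonic anhydrase, at 125 and 115 TPM at E15.5, 131 and 132 TPM at E16.5, and 8.35 and 7.3 TPM at P0 (change -3.85 ± 0.09), Cited1, a transcriptional coregulator, at 27.6 and 26.2 TPM at E15.5, 21.4 and 17.2 TPM at E16.5, and 0.18 and 0.37 TPM at P0 (change -4.22 ± 0.09), and Shbg, the sex hormone-binding globulin, at 18.6 and 19.4 TPM at E15.5, 19.7 and 17.4 TPM at E16.5, and 1.67 and 1.42 TPM at P0 (change -2.96 ± 0.07). In all of these the arms were separate by wide margins. Like Serpina6, Shbg encodes a plasma carrier of steroid hormones.

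**Figure D5:**
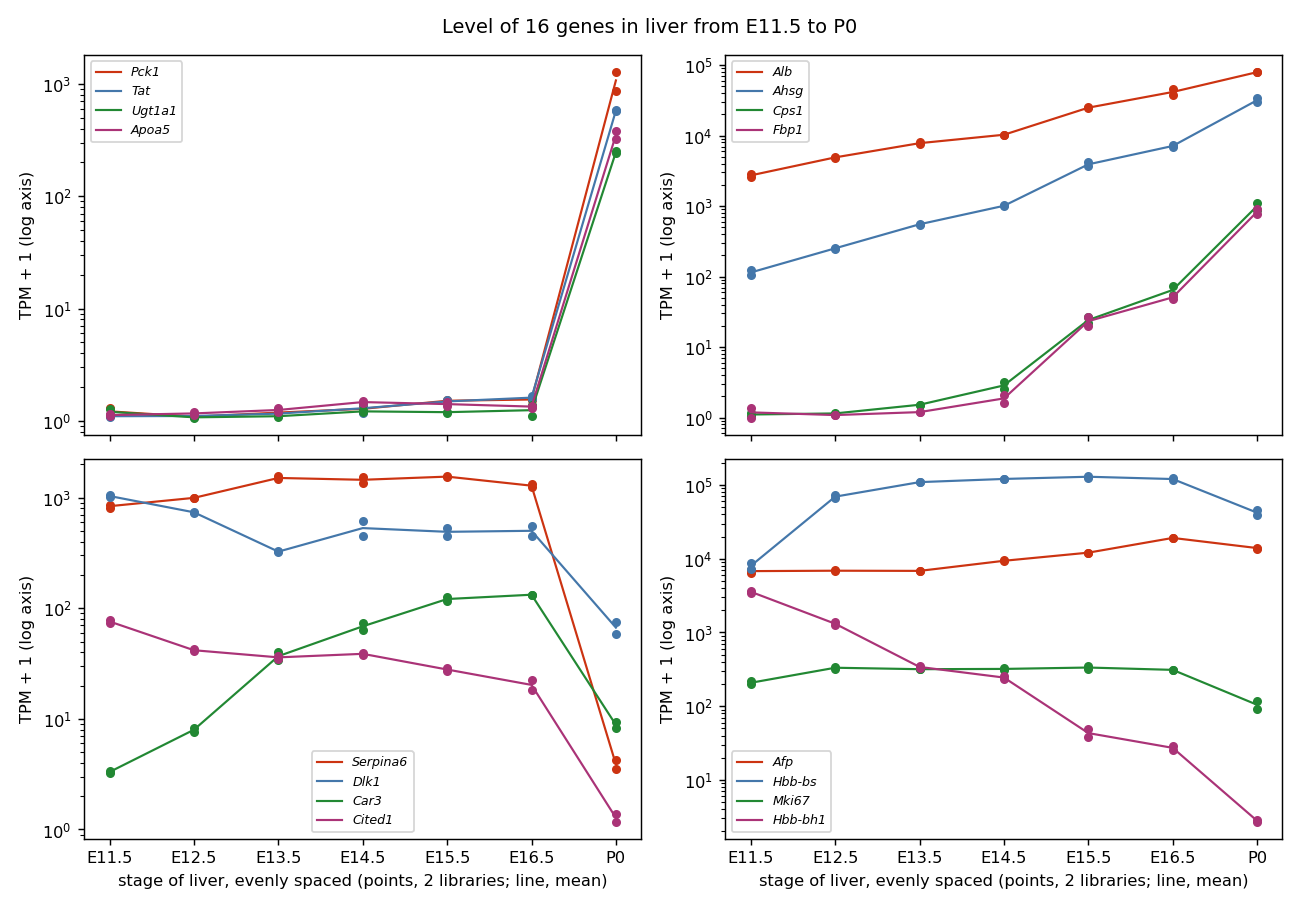
Level (vertical axes, TPM + 1 on log axes) of 16 genes in liver at 7 stages from E11.5 to P0 (horizontal axes, stages evenly spaced, though E16.5 to P0 is longer than the other steps); points are the 2 libraries of a stage and lines their means. Pck1, Tat, Ugt1a1 and Apoa5 are flat until E16.5, Cps1 and Fbp1 climb from E14.5, and Serpina6 has stage means from 837 to 1549 TPM until E16.5 and of 2.88 TPM at P0.

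The series title concerns DNA methylation. Of 6 methyltransferases and cofactors 2 were called lower and 0 higher, beside 4.65% lower and 8.97% higher of all genes. Dnmt1, the maintenance methyltransferase, was at 46.6 and 51.9 TPM at E15.5, 52.5 and 42.5 TPM at E16.5, and 25.1 and 25.1 TPM at P0; both P0 libraries lay below the earlier arm, but the change of -0.91 ± 0.11 (adjusted p 2.35e-05) missed the size threshold. With haemoglobin left out it was -1.38 and called, 1 of 4 of the 6 methyltransferases and cofactors called lower there. Its cofactor Uhrf1 was called lower (change -1.0 ± 0.11, adjusted p 1.46e-05), only just past that threshold; it was not called without replicate 2 of E15.5 (-0.95), replicate 1 of E16.5 (-0.92) or replicate 1 of P0, nor under median-of-ratios scaling (-0.97). Hells, a chromatin remodeller needed for methylation of repeats, fell from a mean of 23.8 TPM in the earlier arm to 8.24 TPM at P0 (change -1.44 ± 0.13). The de novo enzymes Dnmt3a and Dnmt3b were not called (changes 0.22 ± 0.12 and 0.64 ± 0.10). Neither were Tet1 (-0.27), Tet2 (0.33) and Tet3 (0.04), which oxidize methylcytosine; Dnmt3a, Tet2 and Tet3 had changes of -0.22, -0.0065 and -0.37 with haemoglobin left out, so their sign depends on the scaling. Cell cycle genes fell in the same libraries, as described next, and their part in the changes of Uhrf1 and Hells was not tested. Of the demethylation list 2 of 15 were called higher and 1 lower (2 and 3 with haemoglobin left out), beside 8.97% and 4.65% of all genes. Gadd45g and Gadd45b, stress genes that were proposed to assist demethylation, rose by 2.58 and 2.43. Apobec2, of a family of deaminases, fell from a mean of 3.41 TPM in the earlier arm to 0.44 TPM at P0 (change -1.62 ± 0.18). It was not called at a pseudocount of 5 (-0.63). Skeletal muscle genes, described below, fell in the same libraries, and their part in the change of Apobec2 was not tested. In the list of methyl-CpG readers and Polycomb genes 0 of 25 were called in either direction by limma, although 17 had an unadjusted p below 0.05; 1 was called lower with haemoglobin left out, and 0 at pseudocounts of 0.1 and 5. Of the methionine and one-carbon list, which covers the supply of methyl groups, 9 of 23 rose and 2 fell. Pemt, which methylates phosphatidylethanolamine, rose from a mean of 25.3 TPM in the earlier arm to 359.7 TPM at P0 (change 3.89 ± 0.16), and Gnmt, which consumes S-adenosylmethionine, from a mean of 67.8 TPM in the earlier arm to 359 TPM at P0 (change 2.46 ± 0.11).

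Proliferation genes fell: 34 of 47 were called lower and 1 higher, with a median of -1.12. Mki67, the Ki-67 marker of cycling cells, was at 316 and 351 TPM at E15.5, 308 and 312 TPM at E16.5, and 91.5 and 116 TPM at P0 (change -1.63 ± 0.09). Ccne2, a cyclin of S phase entry, fell from a mean of 74.7 TPM in the earlier arm to 17.3 TPM at P0 (change -2.04 ± 0.12), and Ube2c, which helps destroy cyclins in mitosis, from a mean of 269.6 TPM in the earlier arm to 85.4 TPM at P0 (change -1.64 ± 0.09). Cdkn1a was the member that rose. Red cell precursors divide, and erythroid genes fell in the same libraries, as given next; their part in this fall was not tested. Cdk4 and Ccnd3, abundant members, were not called (changes -0.67 and -0.80). The promoter of Mki67 is shown because windows of called cell cycle genes held CCAAT in 82.8% of 29 cases, beside 35.2% of all windows, and TTTGAA, the cell cycle homology region, in 34.5% beside 10.8%. TTTGAA was not particular to this list: it was in 31.0% of windows of called P450 genes of drug metabolism. In windows of called gluconeogenesis and bile acid genes its share was 0%. Both patterns were searched on both strands, and both stand in capitals in the 200 bases before the start (chr7:135716380-135716579, - strand).
Mki67: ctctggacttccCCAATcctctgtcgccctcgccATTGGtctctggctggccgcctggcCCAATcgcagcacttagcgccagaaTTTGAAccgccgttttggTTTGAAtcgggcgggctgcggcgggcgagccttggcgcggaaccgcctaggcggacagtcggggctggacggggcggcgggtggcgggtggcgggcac
CCAAT occurs 3 times and TTTGAA 2 times in this stretch, with no overlap between them.

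Red cell genes fell. All 9 haemoglobin genes tested were called lower (median -1.78). The adult beta chain Hbb-bs was at 126512 and 132658 TPM at E15.5, 117218 and 123968 TPM at E16.5, and 39183 and 45151 TPM at P0 (change -1.57 ± 0.09). The adult alpha chain Hba-a1 was at 121417 and 115324 TPM at E15.5, 72748 and 65333 TPM at E16.5, and 25739 and 22915 TPM at P0 (change -1.89 ± 0.08). Under quantile normalization Hbb-bs (-0.31) and Hba-a2 (-0.90) were not called. The embryonic chains fell further, Hbb-bh1 with 36.6 and 47.7 TPM at E15.5, 28.2 and 24.2 TPM at E16.5, and 1.85 and 1.73 TPM at P0 (change -3.61 ± 0.10) and Hbb-y from a mean of 99.1 TPM in the earlier arm to 7.19 TPM at P0 (change -3.39 ± 0.20). Both embryonic genes had been falling since E11.5, when their means were 3566 and 11340 TPM. The 2 alpha chains Hba-a1 and Hba-a2 are near-identical, and the division of reads between them is uncertain.

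Of the erythroid list 43 of 53 were called lower, none higher, with a median of -1.47; the count was the same under median-of-ratios scaling and against E16.5 alone. Klf1, the master factor of red cell genes, was at 197 and 191 TPM at E15.5, 196 and 166 TPM at E16.5, and 33.1 and 36.8 TPM at P0 (change -2.39 ± 0.07). Trim10, needed for terminal red cell maturation, was at 199.7 and 213 TPM at E15.5, 226 and 214 TPM at E16.5, and 43.7 and 55.3 TPM at P0 (change -2.09 ± 0.08), Epb42, a protein of the red cell membrane skeleton, fell from a mean of 234 TPM in the earlier arm to 57.4 TPM at P0, and Nfe2, a factor of globin genes, from a mean of 226 TPM in the earlier arm to 56.9 TPM at P0. Bnip3l and Bpgm, abundant members, were not called (changes -0.54 and -0.90), though both were called lower with haemoglobin left out (-1.01 and -1.37). The summed level of the list was 13607 to 14474 TPM in the earlier arm and 4774 and 5344 TPM at P0. In bulk tissue, fewer red cell precursors and less RNA per cell cannot be told apart. AGATAA, the pattern of GATA1, was found on either strand in 9 of 37 windows of called erythroid genes (24.3%), beside 6.42% of all windows. The 200 bases before the start of Trim10 (chr17:36869374-36869573, + strand) hold AGATAA once, in capitals, on the opposite strand.
Trim10: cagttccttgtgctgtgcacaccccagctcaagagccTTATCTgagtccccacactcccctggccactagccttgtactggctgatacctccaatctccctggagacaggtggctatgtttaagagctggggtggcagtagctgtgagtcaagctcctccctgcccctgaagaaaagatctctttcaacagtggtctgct
The match lies at -163 to -158 from the start.

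Of blood progenitor genes 1 of 19 was called lower, Lyl1 (-1.41 ± 0.11), and none higher, beside 4.65% lower and 8.97% higher of all genes. The share called lower was thus near that of all genes. The median was 0.04 (2 lower with haemoglobin left out). Spi1, a factor of myeloid and lymphoid progenitors, was not called (change 0.25). Myeloid genes were called higher in 7 of 32 cases (3 with haemoglobin left out) and lower in none. Chil3, a chitinase-like protein of myeloid cells, was at 10.3 and 7.48 TPM at E15.5, 16.6 and 29.3 TPM at E16.5, and 134 and 140.4 TPM at P0 (change 3.20 ± 0.18), and Retnlg, a neutrophil resistin, rose from a mean of 17.3 TPM in the earlier arm to 135 TPM at P0 (change 2.93 ± 0.14). S100a8 and S100a9, calprotectin of neutrophils, were not called (changes 0.85 and 0.85), but both were called higher against E15.5 alone (1.13 and 1.06).

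Kupffer cells are the resident macrophages of the liver, and 6 of 29 markers of macrophages were called higher and none lower (4 higher and 2 lower with haemoglobin left out). Clec4f, a lectin specific to Kupffer cells, was at 7.19 and 6.39 TPM at E15.5, 14 and 17.1 TPM at E16.5, and 105 and 85.4 TPM at P0 (change 3.08 ± 0.11), and Vsig4, a complement receptor, at 2.36 and 2.14 TPM at E15.5, 3.87 and 5.8 TPM at E16.5, and 29.8 and 34.2 TPM at P0 (change 2.93 ± 0.12). Both showed E16.5 above E15.5 as well as P0 above E16.5. Adgre1, the general macrophage marker F4/80, was not called (change 0.11; named after its value was seen). B cell genes were called higher in 12 of 21 cases, median 1.12 (8 with haemoglobin left out). Igkc, the kappa light chain, was at 1.8 and 1.43 TPM at E15.5, 2.2 and 3.37 TPM at E16.5, and 49 and 48.3 TPM at P0 (change 3.99 ± 0.18), Ighm, the mu heavy chain, rose from a mean of 17.6 TPM in the earlier arm to 108 TPM at P0, and Cd72 from a mean of 1.05 TPM in the earlier arm to 11.2 TPM at P0. Vpreb1, part of the surrogate light chain of B cell precursors, was not called (change 0.30). Gzma, a granzyme of killer cells, rose from a mean of 3.29 TPM in the earlier arm to 20.2 TPM at P0, 1 of 3 called of 13 T and NK genes. Of platelet genes 4 of 21 were called higher, Vwf, von Willebrand factor, which endothelium also makes, among them (2.17 ± 0.16). That count was 1 both with haemoglobin left out and without replicate 1 of P0. Of mast cell, basophil and eosinophil genes 1 of 13 was called higher and 3 lower, beside 8.97% and 4.65% of all genes (1 and 5 with haemoglobin left out). The one higher was Gzmb, a granzyme that is also in the T and NK list (change 2.10 ± 0.09). Ear6 and Prg2, genes of eosinophil granules, were called lower (changes -1.79 ± 0.38 and -1.22 ± 0.29), but Prg2 was not called without replicate 1 of P0 (-0.94). Ear2, a more abundant relative of Ear6, was not called (change 0.07 ± 0.32), and reads may be shared among these relatives.

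Interferon-stimulated genes rose together, 24 of 30 called higher, none lower, median 1.44; 16 were called with haemoglobin left out. Isg15, a ubiquitin-like modifier, was at 9.74 and 17 TPM at E15.5, 7.99 and 10.4 TPM at E16.5, and 145 and 108 TPM at P0 (change 3.41 ± 0.21). Rsad2, viperin, was at 5.98 and 6.5 TPM at E15.5, 7.57 and 8.63 TPM at E16.5, and 77.6 and 75 TPM at P0 (change 3.25 ± 0.09), and Ifit3 at 1.56 and 1.9 TPM at E15.5, 1.46 and 1.84 TPM at E16.5, and 25.3 and 18.4 TPM at P0 (change 3.07 ± 0.13). Irf7, the factor that amplifies the response, rose from a mean of 5.89 TPM in the earlier arm to 41.2 TPM at P0 (change 2.61 ± 0.15). The P0 libraries exceeded all earlier libraries in each of these genes, and replicate 1 was the higher. In the same libraries 6 of 29 macrophage markers and 12 of 21 B cell markers were called higher. The summed level of the macrophage list was 1165 to 1391 TPM in the earlier arm and 1704 and 1629 TPM at P0, and that of the B cell list 55.8 to 119 TPM and 332 and 302 TPM. Their part in the interferon result was not tested.

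Endothelial genes of the sinusoids were called higher in 8 of 25 cases (3 with haemoglobin left out). Clec4g, a lectin of these vessels, rose from a mean of 8.33 TPM in the earlier arm to 34.2 TPM at P0, and the Fc receptor Fcgr2b from a mean of 7.49 TPM in the earlier arm to 27.4 TPM at P0. Oit3 was not called (change 0.53). Of stellate cell and fibroblast genes 5 of 29 were called higher, but 1 higher and 4 lower with haemoglobin left out. Ecm1, a matrix protein of stellate cells, rose from a mean of 9.46 TPM in the earlier arm to 47.3 TPM at P0, Dcn, decorin, from a mean of 58.1 TPM in the earlier arm to 149 TPM at P0 (not called with haemoglobin left out, 0.89), and the collagen gene Col3a1 was not called (change -0.59). Of 17 duct genes 2 were called higher, a share near the 8.97% of all genes (2 higher and 1 lower with haemoglobin left out). Spp1, osteopontin of bile duct cells, was 1 of the 2 and rose from a mean of 10.2 TPM in the earlier arm to 68.5 TPM at P0.

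Markers of neighbouring organs differed between libraries. Skeletal muscle genes were called lower in 12 of 13 cases, with a summed level of 348 and 492 TPM at E15.5, 292 and 494 at E16.5, and 26.3 and 134 at P0. Actc1, the cardiac actin that fetal skeletal muscle also makes, was at 44.5 and 57.7 TPM at E15.5, 24.8 and 39.3 TPM at E16.5, and 0.64 and 1.42 TPM at P0 (change -4.36 ± 0.38), and Myh3, embryonic myosin, fell from a mean of 8.26 TPM in the earlier arm to 0.075 TPM at P0. Tnnc1, a troponin of slow and cardiac muscle, was also among the lowest genes, at 63.9 and 68.4 TPM at E15.5, 77.8 and 98.8 TPM at E16.5, and 4.2 and 6.03 TPM at P0 (change -3.67 ± 0.18). Genes of exocrine pancreas fell in 5 and rose in 1 of 14 cases; Ctrb1, chymotrypsinogen, was at 18.3 and 9.4 TPM at E15.5, 25.7 and 67.9 TPM at E16.5, and 14.2 and 1.09 TPM at P0, with arms that overlapped although it was called (change -2.13 ± 0.63, adjusted p 0.0119). Without replicate 2 of P0 it was not called (change -0.70). Without replicate 1 of P0 the pancreas counts were 7 lower and 1 higher, and without replicate 2 they were 3 and 3. The presence of muscle or pancreas RNA in these liver libraries and its part in those falls was not tested.

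The 2 stages pooled in the earlier arm were close but not equal. Between E15.5 and E16.5 241 genes were called (1.64%), 149 higher and 92 lower at E16.5. Chil3, Clec4f, Cyp8b1, Hrg, Mat1a, C4b, Tff3 and Spp1, named above, were among those called higher, by 1.24, 1.08, 1.11, 1.01, 1.06, 1.11, 1.22 and 1.05. Hbb-y was called lower (change -1.63). The largest differences of this step were instead in small RNA genes and in genes with copies: Mir8097, Mir719 and Mir686 were listed at 0 in both E15.5 libraries, as was Snord22, while Snora61 and Snora52 were listed at 0 in both E16.5 libraries, and mt-Co3 and Rps27 changed by 5.59 and -4.79. A selection of polyadenylated RNA captures small RNA genes poorly, and these 8 genes were not read as a change of stage.

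To ask whether a change at birth continued what went before, the change to P0 was set against the change from E13.5 and E14.5 to E15.5 and E16.5 (4 libraries each). The interval to birth is longer, and both changes use the E15.5 and E16.5 libraries. The 2 changes differed in 1659 genes (11.3%), with a more positive change to P0 in 896 (6.08%) and a more negative one in 763 (5.18%). With haemoglobin left out these were 540 and 1922, and under quantile normalization 794 and 1010. Pck1, G6pc and Tat, near the lower limit of the scale until E16.5, had a difference close to the whole change. It was 9.11 ± 0.20 for Pck1 (adjusted p 1.59e-10), 9.13 ± 0.17 for G6pc and 8.21 ± 0.12 for Tat. Some genes that were already climbing were not called: Fbp1 (0.08 ± 0.24), Cps1 (0.43 ± 0.21), Ahsg (-0.23 ± 0.13) and Ppara (0.48 ± 0.16). Genes called higher at E16.5 than at E15.5 were divided in this test. Hrg (4.07) and C4b (1.35) were called more positive, while Chil3 (-0.34) and Tff3 (-0.04) were not called. Urea cycle enzymes divided: Asl was called in this test (2.59 ± 0.10) and Cps1, Arg1 and Ass1 were not (0.35 for Arg1 and 0.22 for Ass1, the latter named after its value was seen). For Afp the difference was -1.05 ± 0.08, since its level had risen to E16.5 and was lower at P0 than at E16.5. Serpina6 was the most negative, -8.45 ± 0.12. The myeloid list had 22 of 32 members with a more negative change to P0 and none with a more positive one, and the platelet list had 16 of 21 more positive and none more negative. Of erythroid genes 43 of 53 were more negative, and of interferon-stimulated genes 19 of 30 were more positive.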

How the data were processed

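Stranded mRNA libraries were made from total RNA purified with a kit for lipid-rich tissue, per the labels' protocols. The authors deposited 1 table of TPM values per gene and library. Per the submitters' processing notes, STAR 2.4.0k, RSEM 1.2.23 and mm10 were used; which step each served, and the annotation release, were not given in the sources used here. TPM keeps no read counts, so depth is unknown and no counting interval is given. Of 61 columns, 14 were liver, at 7 stages with 2 libraries each.

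Symbols and positions came from GENCODE M21 (GRCm38, the assembly of mm10). Genes with at least 1 TPM in at least 2 liver libraries were kept (14729 of 43346). Values were analysed as log2(TPM + 1) with limma 3.58.1 in R 4.3.3: 1 mean per stage, all 14 liver libraries (7 residual degrees of freedom), a mean-variance trend, contrasts and Benjamini-Hochberg adjustment over all genes kept. Brain was left out of the fit, because liver genes at 0 there would lower the pooled spread. All p-values are two-sided. Settings tried were median-of-ratios and quantile scaling, haemoglobin left out, pseudocounts, filters, other sets of libraries, no trend, a replicate block, and leaving out each library from E13.5 to P0. In simulated data for the P0 contrast (14729 genes, 200 changed), 99% of changes were recovered and 0 unchanged genes called. The changed genes were all well expressed, their changes exceeded the size threshold, noise was independent, and other genes were equal between stages. The simulation therefore does not cover genes near the lower limit, changes near the threshold or the shift in haemoglobin.

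Replicates of a stage differed in at least 97.8% of genes. The comparison, its gene lists, the named genes and the alternatives were chosen with earlier results of these data known. Named genes were, for each of 58 lists, up to 4 called members with the largest change and up to 2 abundant members not called; the 12 highest and 12 lowest genes overall; the 8 largest gains and losses in TPM; the 5 highest and lowest genes of the other contrasts; and a set of genes of DNA methylation and liver function. Some genes that the rule names are not reported here. Genes named outside this rule are said to be so, as are those of the serpin cluster. Lists are described by counts and medians, without a test of the list. Promoter windows and their motifs were read from RefSeq sequences of GRCm38.p6, matched by symbol.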

Additional observations from a re-analysis of the deposited data

Results flagged for a closer look

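The change of liver to P0 and the preceding change from E13.5 and E14.5 to E15.5 and E16.5 differed, by a test of the difference itself in limma, in 1659 genes. By the rule for named genes, the most positive differences were those of Serpina3k (9.46 ± 0.25), G6pc (9.13 ± 0.17), Pck1 (9.11 ± 0.20), Serpina3m (8.83 ± 0.17) and Tat (8.21 ± 0.12). All 5 were near the lower limit of the scale until E16.5. The most negative were Serpina6 (-8.45 ± 0.12), Ckm (-6.65 ± 0.78), Ctrb1 (-6.48 ± 0.96), Actc1 (-5.92 ± 0.58) and Myh8 (-5.85 ± 0.59). Ckm, Actc1 and Myh8 are muscle genes and Ctrb1 is a pancreas gene; their means rose from E13.5 and E14.5 to E15.5 and E16.5 before they fell, and the part of neighbouring tissue in them was not tested. Groups of 2 libraries were too small to look for single libraries that stand apart.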

How the results depend on the processing

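The count of genes called at P0 was 2006 and ranged from 1935 to 2172 when each library from E13.5 to P0 was left out in turn. Libraries at E11.5 and E12.5 were not left out. It was 1101 with a pseudocount of 5, 2907 with 0.1, 2127 under median-of-ratios scaling and 2078 under quantile normalization, where 57.2% were higher beside 65.9%. The count between E16.5 and E15.5 was 241, 393 with a pseudocount of 0.1, 122 with one of 5, and 182 to 286 with a library left out. The difference of changes had 1659 genes, 875 with a pseudocount of 5, and 1586 to 1858 with a library left out. A larger pseudocount shrinks the changes of low genes; the cause of the other shifts was not tested.

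The replicate numbers were not taken as pairs: deviations of same-numbered libraries correlated at -0.028, 0.087 and 0.212 across genes. With the replicate number as a block the counts were 2008, 238 and 1661, and it changed no call of a gene called in the text.

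Against E16.5 alone, the changes of Mir719 (-0.070), Mir8097 (-0.47), Rps27 (0.62), Snora52 (0) and Snora61 (0) lost or turned their direction, that of Snord22 ranged from -2.21 to 1.19 with a P0 library left out, and that of mt-Co3 was 1.75 against E15.5 alone; all are small RNA genes or genes with copies. Of 208 genes named, 165 were called, and 141 of these stayed called under every alternative. With haemoglobin left out, 13 of 58 lists changed their count of calls in either direction by over 1.5 times. That count pools higher and lower calls, so shifts between them can cancel. The stellate cell and fibroblast list, with 5 higher and 0 lower against 1 and 4, is not among the 13. Counted separately, higher or lower calls moved by that factor in more lists. Values kept no read counts, so depth sets no limit that can be stated.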

Other observations

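Some genes outside every list changed as much as the enzymes described above, and they were chosen after their values were seen. The 3 enzymes that break down urate rose together. Uox, urate oxidase, stood at 63.7 and 48.9 TPM at E15.5, 134 and 185 TPM at E16.5, and 885 and 1069 TPM at P0 (change 3.36 ± 0.18). Urad changed by 3.74 ± 0.11 and Urah by 2.60 ± 0.10. In each of the 3 genes both P0 libraries lay above the earlier arm. Fgl1, a liver protein related to fibrinogen, rose from a mean of 8.17 TPM in the earlier arm to 805 TPM at P0 (change 6.49 ± 0.09), Pon1, the paraoxonase of high-density lipoprotein, from a mean of 9.54 TPM in the earlier arm to 350.3 TPM at P0 (change 5.22 ± 0.13), and Azgp1, a zinc-binding glycoprotein, from a mean of 41.8 TPM in the earlier arm to 981 TPM at P0 (change 4.72 ± 0.16). Receptors were among them too. Egfr, the receptor of epidermal growth factor, stood at 1.35 and 1.69 TPM at E15.5, 1.85 and 1.53 TPM at E16.5, and 68.9 and 41.5 TPM at P0 (change 4.39 ± 0.17), and Lepr, the leptin receptor, at 0.82 and 0.97 TPM at E15.5, 1.31 and 1.39 TPM at E16.5, and 22 and 37.5 TPM at P0 (change 3.82 ± 0.15). Txnip, which restrains glucose uptake, rose from a mean of 49.6 TPM in the earlier arm to 761 TPM at P0 (change 3.87 ± 0.14).

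Families defined by their symbols were counted too, beside 8.97% called higher and 4.65% called lower of all genes. These counts were not repeated with haemoglobin left out. Of 10 sulfotransferase genes tested 9 were called higher and none lower. Of 56 cytochrome P450 genes of all kinds, which include those of the list above, 45 were called higher and none lower. Calls were higher in 8 of 16 hydroxysteroid dehydrogenase, 5 of 9 retinol dehydrogenase and 5 of 8 guanylate-binding protein genes, and lower in none. Of 35 kinesin genes 13 were called lower and 1 higher, with a median of -0.39. Of 10 Mcm genes, a family that includes the subunits of the replicative helicase, 6 were called lower and none higher.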
